A study of Arabidopsis thaliana with 24 samples.

Results

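The transcripts of *rve8-1* and Col seedlings were compared at subjective dusk, circadian time 12 (CT12), the time at which plants kept in a day of 12 h light and 12 h dark would expect the lights to go off. Members were the arrays of the harvests at 84 and 108 h in constant light, 2 per genotype, and they made up 4 of the 24 arrays of a time course that ran on AGRONOMICS1 tiling arrays from 72 h at intervals of 4 h. Col is the Columbia wild type. The *rve8-1* line is a mutant in which T-DNA is inserted in *RVE8* (*AT3G09600*), and it represents a single allele. Whole seedlings were used, about 50 pooled per sample, after 7 days of light and dark cycles on agar medium with sucrose, and both genotypes were treated alike. The harvest at 108 h served as the replicate of that at 84 h, so replicates of a genotype differed by 1 day of free run, and nothing states that they were grown as separate cultures. All p values below rest on the spread between harvests 1 day apart. That spread was pooled over the 12 groups of genotype and time of day among the 24 arrays, so most of it comes from other times than dusk.

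The plant clock is a loop of transcription factors expressed in sequence through the day. The Myb-like factors *CCA1* and *LHY* accumulate at dawn, the pseudo-response regulators *PRR9*, *PRR7*, *PRR5* and *TOC1* follow one another from morning to evening, and the evening complex of *ELF3*, *ELF4* and *LUX* acts at night. *RVE8* is a Myb-like relative of *CCA1* that activates genes with an evening element in their promoters, with LNK proteins as its partners. Dusk is the time at which, in wild type, morning-phased transcripts have fallen and some evening-phased ones are rising or at their peak. In these Col arrays *PRR5* and the clock gene *GI* were already lower at CT12 than at CT8.

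Values are log2 expression levels, so that a difference of 1 is a 2-fold change. A gene was taken as expressed when its level exceeded 4.5 on at least 4 of the 12 arrays of either genotype, which 19473 of 30237 array entries did. Correlations among the 4 dusk arrays lay between 0.980 and 0.988 over all 30237 entries, expressed or not, and none stood apart. The median SD over genes was 0.09 between the 2 Col arrays and 0.10 between the 2 *rve8-1* arrays. Of 14 markers of seedling tissues, 12 were expressed and none was called. The small subunit of Rubisco (*RBCS1A*) lay between 13.63 and 13.79, and the root marker *PYK10*, a beta-glucosidase, between 11.66 and 11.97. Among the 5 flower and seed markers none was expressed, at 3.08 to 4.71. In pooled whole seedlings, fewer cells of a type and less RNA per cell cannot be told apart.

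The mutated gene was examined first. *RVE8* had levels of 4.45 and 5.36 in Col at 84 and 108 h and of 3.33 and 3.68 in *rve8-1*. The groups did not overlap, and both mutant values lay below the expression threshold. Among all expressed entries, 51.8% had groups that did not overlap, so with 2 arrays a side this alone says little of a gene. The difference was -1.40 (standard error 0.22, limma adjusted p = 0.00590). Dusk was near the low point of *RVE8* in Col, and the same comparison gave -3.37 at CT16, -3.45 at CT20 and -0.22 at CT8. The call of *RVE8* was lost without Col_108 or rve8-1_84, at an adjusted p of up to 0.0954.

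Genotypes were contrasted in a limma model of the 24 arrays that holds a mean for every combination of genotype and time of day, and a call means an adjusted p (Benjamini-Hochberg) under 0.05. At CT12, 177 entries (0.909% of those tested) were called. They comprised 96 that were higher in *rve8-1* (0.493%) and 81 that were lower (0.416%). Of the 19473 entries tested, 2224 had an unadjusted p under 0.05, where a share of about 0.05 would fall without any difference. Of the higher entries, 49 differed by at least 1 log2 unit and the median difference was 1.01. The lower entries had a median absolute difference of 0.82, with 27 at 1 or more. Over all expressed genes the median difference was -0.01. With quantile normalization of the arrays, 118 entries were called higher and 54 lower, which raised the share called higher from 54.2% to 68.6%. The same contrast called 716 entries at CT4, 681 at CT8, 610 at CT16, 48 at CT0 and 69 at CT20, so that dusk lay between the times with many calls and those with few.

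**Figure D1:**
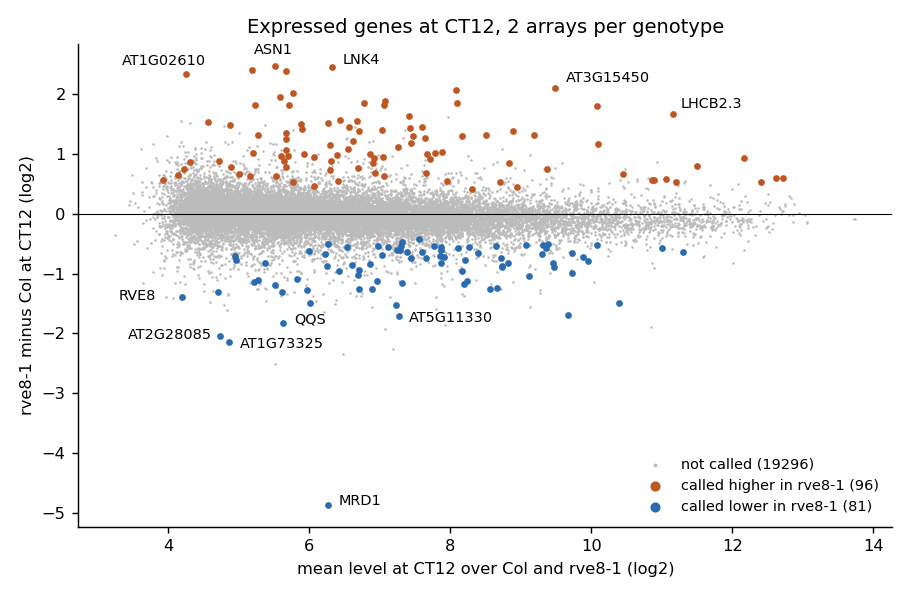
Each point is 1 of the 19473 expressed entries, with its mean log2 level at CT12 on the horizontal axis and the *rve8-1* minus Col difference (log2) on the vertical axis. The 96 entries called higher and the 81 called lower are coloured, and *MRD1* lies far below all others at -4.86.

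With 2 arrays a side, the length of this list depended on having all 4 dusk arrays. Leaving out any 1 of the 4 dusk arrays, which leaves 1 array in a group, gave fewer calls. Since the groups of none of the 177 entries overlapped, no sign could change in any of those 4 settings. The 16 that were also called in each of them were *PIF5*, *PRR7*, *LHCB2.3*, *LHB1B1*, *BBX24*, *BBX28*, *COL5*, *PHT4;1*, *J11*, *AT3G09580*, *AT2G30600*, *AT2G17880* and *AT1G66100*, which were higher, and *MRD1*, *AT5G11330* and *AT1G73325*, which were lower. The other calls described below were lost without at least 1 of the 4 arrays (Col_84, Col_108, rve8-1_84 or rve8-1_108). Many, among them both flavonoid calls and those of *PIF4*, *GI* and *BAM3*, were lost whichever of the 4 was left out.

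Apart from the LNK genes, the steepest rises belonged to *ASN1*, *CIPK20*, *AT1G02610*, *AT3G15450* and *THI2.2*. *ASN1*, a glutamine-dependent asparagine synthetase induced in darkness, had 4.15 and 4.42 in Col and 6.66 and 6.84 in *rve8-1*. The difference was 2.47 (standard error 0.37, limma adjusted p = 0.00501). *CIPK20*, a kinase that acts with calcineurin B-like calcium sensors, had 3.91 and 4.07 against 6.34 and 6.45. The *CIPK20* difference was 2.41 (standard error 0.34, adjusted p = 0.00309). Both Col values of *ASN1*, *CIPK20*, *AT1G02610* and *PRR7* lay below the threshold of expression, and the size of these rises may be understated. *AT3G15450* had 8.43 and 8.45 in Col and 10.63 and 10.45 in *rve8-1*, a difference of 2.1 (standard error 0.35, adjusted p = 0.00929). For *ASN1*, *CIPK20* and *AT3G15450* both mutant arrays lay far above both Col arrays. *MYBL2*, a Myb-like repressor of anthocyanin synthesis, had 6.13 and 6.14 against 8.01 and 8.02, a difference of 1.88 (adjusted p = 0.00670). The thionin gene *THI2.2*, of a family of antimicrobial peptides, differed by 2.06 (adjusted p = 0.00254). *AT1G02610* differed by 2.34 (adjusted p = 0.0138), with Col near the floor of the arrays at 3.05 and 3.11.

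All 4 LNK genes were called higher, and these encode the transcriptional coactivators with which *RVE8* works. *LNK4* (*AT5G06980*) had 5.01 and 5.20 in Col and 7.20 and 7.90 in *rve8-1*, a difference of 2.45 (standard error 0.35, limma adjusted p = 0.00305). *LNK3* (*AT3G12320*) had 4.15 and 4.82 against 6.51 and 7.21, a difference of 2.38 (standard error 0.37, adjusted p = 0.00590). For both genes the harvest at 108 h was the higher of the pair in each genotype. *LNK2* had 4.54 and 4.98 against 6.53 and 7.01, a difference of 2.01 (standard error 0.29, adjusted p = 0.00361). *LNK1* changed least of the 4, from 5.13 and 5.26 to 6.49 and 6.74, a difference of 1.42 (standard error 0.23, adjusted p = 0.00785). No mutant array overlapped a Col array for any LNK gene, as was the case with 23.6% of all expressed entries in this direction.

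Among the pseudo-response regulators, which repress *CCA1* and *LHY*, the calls went to the middle of the series. *PRR7* had 4.37 and 4.27 in Col and 6.20 and 6.08 in *rve8-1*, a difference of 1.82 (standard error 0.20, limma adjusted p = 0.000563). *PRR5* had 5.39 and 5.47 against 6.57 and 6.28, a difference of 0.99 (standard error 0.18, adjusted p = 0.0156). The evening member *TOC1* had 6.97 and 6.86 against 6.95 and 6.55, groups that overlapped (difference -0.17, adjusted p = 0.815). *PRR9*, the earliest member, did not pass the test at 0.90 (adjusted p = 0.195), and *PRR3* had -0.07. For *TOC1* and *PRR3* dusk was where the courses of the genotypes crossed. *TOC1* differed by -1.52 at CT8 and by 0.82 at CT16, and *PRR3* by -2.10 and 1.05.

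*GI*, a large protein that links the clock to light signalling and to flowering, had 4.83 and 4.56 in Col and 5.86 and 5.56 in *rve8-1*. The difference was 1.02 (standard error 0.18, limma adjusted p = 0.0125), and the groups did not overlap. No member of the evening complex was called, with 0.05 for *ELF3*, -0.22 for *ELF4* and 0.23 for *LUX*. *BOA*, a homologue of *LUX*, had -0.93 (adjusted p = 0.0703). The dawn regulator *CCA1* had 4.22 and 4.73 against 5.03 and 5.68, groups that did not overlap, but the difference of 0.88 did not pass the test (adjusted p = 0.207), and *LHY* had 0.51 (adjusted p = 0.646).

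*RVE8* belongs to a family of Myb-like factors, of which 2 other members were called, in opposite directions. *RVE7* had 6.03 and 5.99 in Col and 7.34 and 7.45 in *rve8-1*, a difference of 1.38 (standard error 0.26, limma adjusted p = 0.0185). *RVE2* had 9.35 and 9.22 against 8.09 and 8.0, a difference of -1.24 (standard error 0.21, adjusted p = 0.00992). Over the other 5 times of day, Col levels of *RVE7* were highest at CT4 and those of *RVE2* at CT16. Their relatives *RVE4* and *ASG4* had 0.42 (adjusted p = 0.222) and 0.11. *RVE1* had -0.07.

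**Figure D2:**
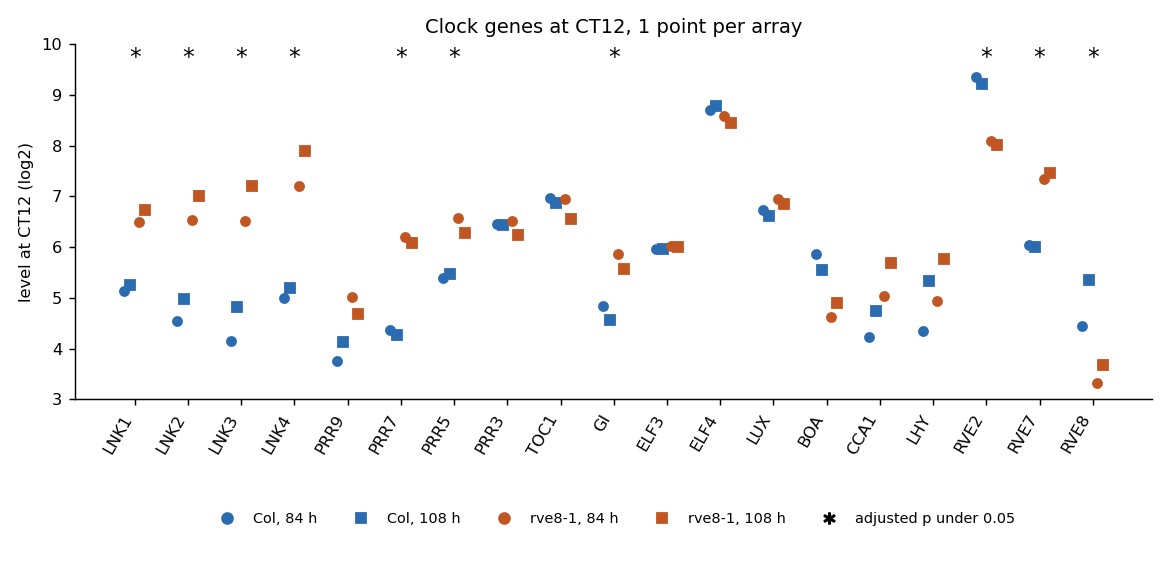
The vertical axis gives the log2 level at CT12 of 19 clock genes, with 1 point per array, Col in blue and *rve8-1* in orange, circles for 84 h and squares for 108 h. Stars mark genes with an adjusted p under 0.05, which include *LNK1* to *LNK4*, *PRR7*, *PRR5* and *GI*, whereas *TOC1*, *ELF3* and *PRR3* points of both genotypes lie together.

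The list of morning clock genes, with the RVE and LNK families, *PRR9* and *PRR7*, thus had 8 of 16 members called (6 higher and 2 lower), against 0.909% of all entries. The mutated *RVE8* itself was 1 of the 2 lower calls. The median difference of this list was 0.69, and it lay between 0.39 and 1.05 with single dusk arrays left out. For the list of afternoon and evening clock genes the count was 2 of 12, both higher, and the median was -0.01, as for all expressed genes. These lists were drawn up with earlier results of these data known, and their counts are descriptions.

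*PIF4* and *PIF5* are bHLH factors that promote elongation growth and are controlled by the clock and by phytochrome. *PIF5* had 5.82 and 5.90 in Col and 7.64 and 7.78 in *rve8-1*, a difference of 1.86 (standard error 0.20, limma adjusted p = 0.000424). *PIF4* had 6.12 and 6.18 against 7.89 and 8.04, a difference of 1.81 (standard error 0.29, adjusted p = 0.00602). The genotypes stood far apart for both genes. The auxin response gene *IAA29*, a target of the PIFs, had 5.01 and 5.09 against 6.44 and 6.15, a difference of 1.25 (adjusted p = 0.0460). *HFR1*, an atypical bHLH protein that restrains the PIFs, had 5.14 and 5.14 against 6.23 and 6.17, a difference of 1.06 (adjusted p = 0.0423). *IAA29* and *HFR1* were not called with quantile normalization (adjusted p = 0.0584 and 0.0619) and were also lost without single arrays of other times of day. In the whole list of PIFs and growth genes 4 of 13 expressed members were called, all higher, against 0.493% of all entries, with a median of 0.30. *PIF7* (0.39) and *PIF3* (0.02) did not pass the test.

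In photoperiodic flowering, 3 of 14 expressed genes were called, all higher, against 0.493% of all entries. The median was 0.18, and it fell to 0.06 without rve8-1_108. Besides *GI* these were *CDF3*, with 5.84 and 5.96 in Col and 6.89 and 6.86 in *rve8-1*, and *AT1G69570*, with differences of 0.97 and 0.87 (limma adjusted p = 0.0185 and 0.0174). *CDF3* is a Dof factor of the family that represses *CO*. *CO* itself (-0.36) and its target *FT* (0.07) did not pass the test. Of 8 genes listed as evening outputs 2 were called, both higher, against 0.493% of all entries, with a median of 0.40. *BBX24*, a B-box protein of light signalling, had 8.52 and 8.55 against 9.69 and 10.01 (difference 1.32, adjusted p = 0.00165). Despite its place in that list, the Col level of *BBX24* over the other 5 times of day was highest at CT0. The glycine-rich RNA-binding protein gene *CCR1* differed by 0.57 for 1 of its transcripts (adjusted p = 0.0404), and 2 of its 4 transcript entries, which share sequence, were called. *BBX28*, also a B-box gene, had 4.45 and 4.77 in Col and 6.25 and 6.87 in *rve8-1*, a difference of 1.94 (standard error 0.24, adjusted p = 0.00118).

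Light-harvesting genes encode the chlorophyll-binding proteins of the photosynthetic antenna. *LHCB2.3*, a protein of the major antenna of photosystem II, had 10.36 and 10.29 in Col and 11.95 and 12.03 in *rve8-1*. The difference was 1.66, or 3.17-fold (standard error 0.17, limma adjusted p = 0.000354), and it held without each of the 4 dusk arrays. *LHCA1*, of the photosystem I antenna, had 12.47 and 12.38 against 13.03 and 13.01 (difference 0.60, adjusted p = 0.00992). *LHCB3* had 12.38 and 12.25 against 12.92 and 12.92 (difference 0.60, adjusted p = 0.0228). Members with close copies, such as those of the LHCB2 group, may share probe signal. One antenna gene went the other way. *LHCB4.3*, of the minor antenna, had 7.80 and 8.0 in Col and 6.65 and 6.83 in *rve8-1*, a difference of -1.16 (adjusted p = 0.00992), and among the other 5 times its Col level was highest at CT16. In all, 5 of 16 expressed members were called, 4 higher and 1 lower, against 0.909% of all entries, and the median was 0.24.

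The genes lower in *rve8-1* were led by *MRD1* (*AT1G53480*), a gene named for its fall in a methionine-overaccumulating mutant. It had 8.61 and 8.78 in Col and 4.13 and 3.53 in *rve8-1*, a difference of -4.86, or 29.1-fold (standard error 0.21, limma adjusted p = 3.55e-09). Since both mutant values lay below the threshold of expression, the size of the fall may be understated. *AT5G11330* had 8.12 and 8.13 against 6.43 and 6.41, a difference of -1.70 (standard error 0.13, adjusted p = 1.04e-05). *QQS*, an orphan gene that affects starch content, had 6.46 and 6.64 against 5.18 and 4.26, a difference of -1.83 (standard error 0.38, adjusted p = 0.0349). *MRD1* and *AT5G11330* were also called at each of the other 5 times, with differences from -4.39 to -5.56 and from -1.44 to -1.82. *QQS* was called at 4 of them, with -1.50 to -2.30, and had -1.38 at CT20 (adjusted p = 0.189).

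Among the other large falls, *AT1G73325*, *AT2G28085*, *cPT4* and *TBL26* had their highest Col level of the other 5 times at CT16 or CT20. *AT1G73325* had 5.92 and 5.96 in Col and 3.61 and 3.97 in *rve8-1*, a difference of -2.15 (standard error 0.28, limma adjusted p = 0.00165). *AT2G28085*, also known as *SAUR42* of the small auxin-upregulated RNAs, had 5.67 and 5.83 against 3.74 and 3.70 (difference -2.03, adjusted p = 0.00501). For both, the mutant values lay below the threshold of expression. The cis-prenyltransferase gene *cPT4* and the trichome birefringence-like gene *TBL26* had -1.53 and -1.50 (adjusted p = 0.0404 and 0.0299). *AT2G41090* had 10.83 and 11.46 against 9.02 and 10.27, with a spread within *rve8-1* nearly as large as the difference of -1.50 (adjusted p = 0.0404, and 0.0587 with quantile normalization). *AT5G03545*, known as AT4 or *IPS2*, a transcript induced by phosphate starvation, had 10.34 and 10.68 against 8.81 and 8.84 (difference -1.69, adjusted p = 0.0228).

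The flavonoid pathway, which makes flavonols and anthocyanins from phenylalanine, had 2 of 17 expressed members called, both lower, against 0.416% of all entries tested. The other 15 did not pass the test. The differences of all 17 lay below 0, with a median of -0.53 against -0.01 for all expressed genes. *MYB111*, an activator of flavonol genes, had 5.67 and 5.97 in Col and 4.56 and 4.88 in *rve8-1* (difference -1.10, limma adjusted p = 0.0121). *UGT78D1*, a flavonol rhamnosyltransferase, had 8.22 and 8.33 against 7.43 and 7.47 (difference -0.82, adjusted p = 0.00992). The anthocyanin genes *DFR* and *LDOX* had -1.67 and -1.64 and did not pass the test (adjusted p = 0.0750 and 0.0533). Without each of the 4 dusk arrays the median of the list stayed between -0.58 and -0.51.

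Starch genes had 2 calls among 24, both lower, against 0.416% of all entries. Their median was -0.12, and it was -0.06 without rve8-1_108 or with quantile normalization. One was *QQS*. The other was *BAM3*, the main beta-amylase of starch breakdown in leaves at night, with 9.58 and 9.71 in Col and 8.79 and 8.42 in *rve8-1* (difference -1.04, limma adjusted p = 0.0174). *BAM5* had the largest difference of the list, -2.52, but its mutant arrays were 5.15 and 3.36 and it was not called (adjusted p = 0.344). The jasmonate list had 1 call among 19, *OPR3*, an enzyme of jasmonate synthesis (difference -0.56, adjusted p = 0.0125). The cold list had 1 among 9, *RD29A*, which responds to cold and drought (difference -0.74, adjusted p = 0.0407, and 0.0566 with quantile normalization). None of 20 glucosinolate genes was called, with a median of 0.03 that lay between -0.05 and 0.09 with single dusk arrays left out (below 0 without Col_108 or rve8-1_84). None of 7 heat shock and touch genes was called either, with a median of -0.31 that lay between -0.50 and -0.12 with single dusk arrays left out.

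**Figure D3:**
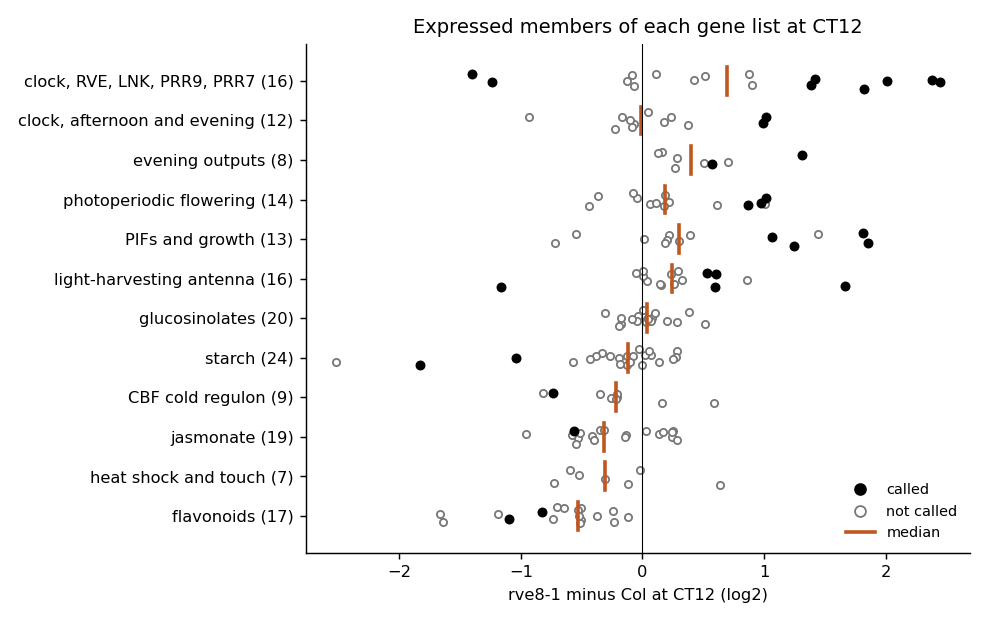
Each circle is an expressed gene of the list named at the left, with the number of expressed members in parentheses, placed by its *rve8-1* minus Col difference at CT12 (log2). Filled circles were called and the orange bar is the median, which is 0.69 for the morning clock list and -0.53 for flavonoids.

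The time of day at which called genes are normally high was read from the 20 arrays of the other 5 times, none of which entered the dusk difference. In Col, 54 of the 96 genes called higher (56.2%) had their highest mean at CT4, against 23.1% of all expressed genes, and 27 (28.1%) had it at CT0, against 16.5%. Another 12 had it at CT8 and none at CT16. Of the 81 genes called lower, 64 (79.0%) had it at CT16, against 21.6% of all expressed genes, and none at CT4. Col levels were higher at CT8 than at CT16, the times on either side of dusk, for 86 (89.6%) of the genes called higher and for 7 (8.64%) of those called lower, compared with 49.2% of all expressed genes. In *rve8-1*, 64.6% of the genes called higher were highest at CT8, against 24.4% of all expressed genes. Those called lower were highest at CT20 in 35.8%, at CT0 in 28.4% and at CT16 in 22.2%, against 13.7%, 16.4% and 24.6% of all expressed genes. Because CT12 was left out, a gene that peaks at dusk itself is counted at another time.

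**Figure D4:**
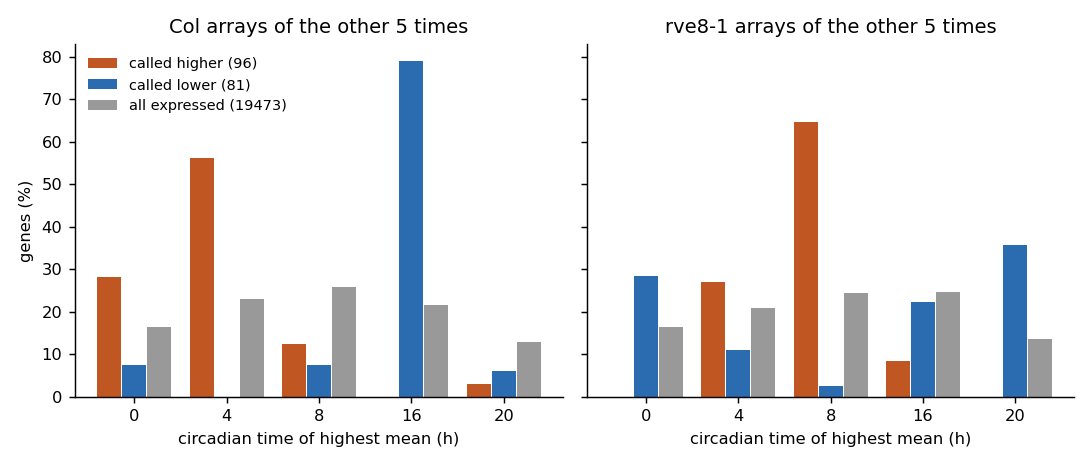
Bars give the percentage of genes with their highest mean level at each circadian time, without CT12, in Col on the left and *rve8-1* on the right. Genes called lower at CT12 were highest at CT16 in 79.0% of cases in Col, and those called higher were highest mostly at CT0 and CT4 in Col and at CT8 in *rve8-1*.

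To set the mutant at dusk against an earlier time in wild type, *rve8-1* at CT12 was compared with Col at CT8. Only 2 entries (0.0103%) were called, *MRD1* and *AT5G11330*. Among the 19473 entries tested, 1100 had an unadjusted p under 0.05, where a share of about 0.05 would fall without any difference. *MRD1* differed by -4.82 (limma adjusted p = 4.10e-09) and *AT5G11330* by -1.60 (adjusted p = 2.49e-05). This comparison and that at dusk share the *rve8-1* arrays, so their values are given side by side. For *PRR7*, Col had 6.0 and 5.80 at CT8, and the difference was 0.24 there against 1.82 at dusk. For *GI* it was 0.01 against 1.02, for *CIPK20* 0.14 against 2.41 and for *RVE7* 0.12 against 1.38. Some genes kept larger differences without being called, among them *ASN1* with 1.14, *LNK3* with 1.05, *LNK4* and *THI2.2* with 1.00 and *QQS* with -2.05 (adjusted p = 0.190). Genes missing from this short list were not shown to be equal at the 2 times.

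The dusk difference was also tested against the mean of the differences at the other 5 times, and 162 entries (0.832%) were called, 105 with a higher and 57 with a lower value at dusk. Without any 1 of the 4 dusk arrays this count fell to between 32 and 35. The contrast contains the dusk difference itself, and the mean of the others can be small because differences of opposite sign cancel in it. *CIPK20* had 3.14, *BBX28* 2.65 and *PRR7* 2.03. For the dusk calls of *MRD1* (0.07), *AT5G11330* (-0.13) and *QQS* (-0.12) no such contrast was detected (limma adjusted p = 0.982, 0.912 and 0.982). *AT3G09580*, which neighbours *RVE8* by locus number, had 6.82 and 6.90 in Col and 8.05 and 8.03 in *rve8-1* at dusk, a difference of 1.18 (standard error 0.14, adjusted p = 0.000941). It was also called at CT4, CT8, CT16 and CT20, with 0.70 to 1.14, and had 0.64 at CT0 (adjusted p = 0.0921). The contrast did not pass the test (0.30, adjusted p = 0.606). *AT3G09590*, which lies between *AT3G09580* and *RVE8* in locus number, had 0.34 at dusk (adjusted p = 0.644), although it was called higher at CT0 (2.49, adjusted p = 0.000116), CT4 (2.33, adjusted p = 0.000124) and CT8 (1.32, adjusted p = 0.00695). Whether the insertion has a part in the levels of these neighbours was not tested.

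**Figure D5:**
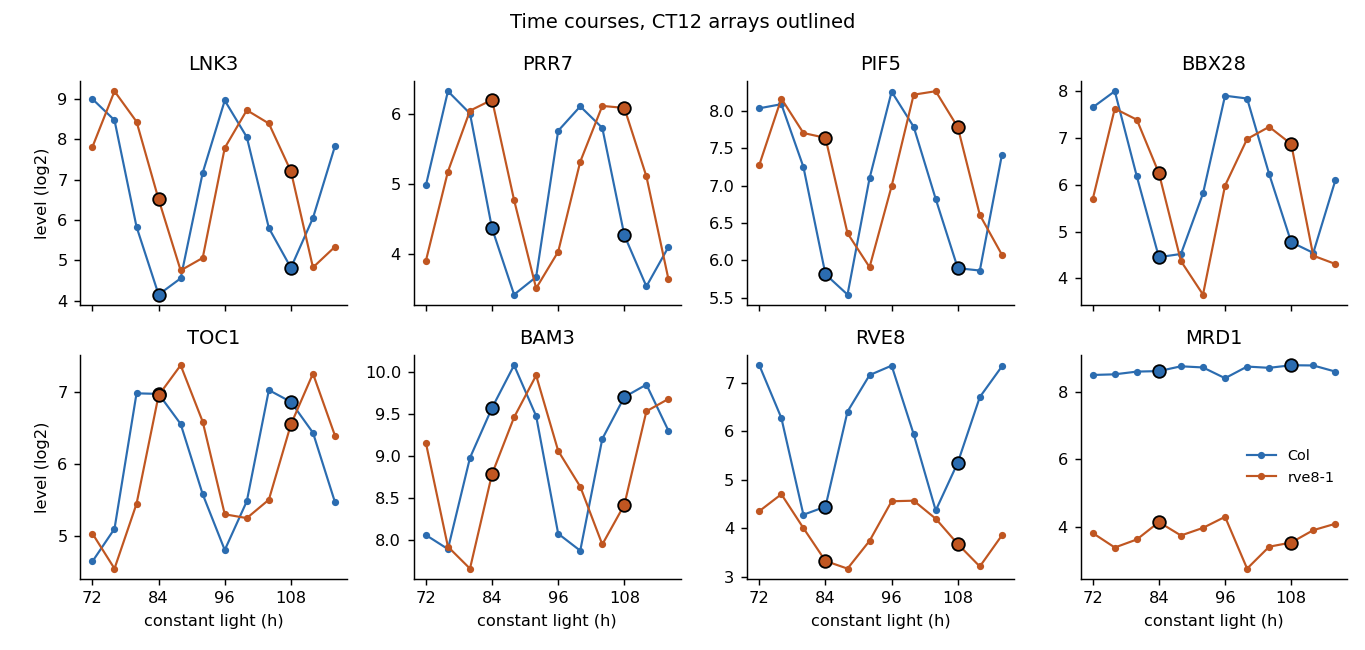
Log2 levels of 8 genes on each of the 24 arrays are plotted against hours in constant light, with Col in blue, *rve8-1* in orange and the CT12 arrays outlined. At dusk the *rve8-1* points of *LNK3*, *PRR7*, *PIF5* and *BBX28* lie above those of Col and those of *BAM3*, *RVE8* and *MRD1* below, while *TOC1* lies near the crossing of its curves.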

How the data were processed

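The authors left out poorly performing probes and applied RMA to correct, normalize and summarize the remaining ones by TAIR9 gene, and the deposited values are log2 levels of 30237 entries. Columns of other samples numbered 0, and 29715 entries matched a locus tag of the reference (TAIR10.1), from which symbols were taken. Suffixes of the identifiers are not explained in the sources used here. The number of arrays limits precision, and depth does not apply.

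A mean for each of 12 groups was fitted to 24 arrays with limma 3.58.1 in R 4.3.3 (12 residual and 3.58 prior degrees of freedom), with two-sided moderated tests and Benjamini-Hochberg adjustment over 19473 entries. Tables and figures used Python 3.11.15, pandas 2.3.3, numpy 2.4.6 and matplotlib 3.10.9. The fit was tested on simulated data. Named genes were the 10 largest rises and 10 largest falls among calls, the 5 smallest p values, clock genes, genes around *RVE8*, genes with primers in the study and, per list, up to 4 called members with the smallest p. Any other gene was named after its values were seen. Where a locus had several entries, lists took the one with the highest mean. Members and lists were chosen with earlier results of these data known. Alternatives covered the filter, scaling, the prior, the arrays fitted, a replicate block and each array left out. Leaving out any of the 20 arrays of other times was added after seeing the data.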

Additional observations from a re-analysis of the deposited data

Results flagged for a closer look

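The *rve8-1* minus Col difference at CT12 was set against the mean of the same difference at the other 5 times of day in 1 contrast (limma, Benjamini-Hochberg adjusted p under 0.05), and the following results are listed because that difference between times passed the test. The contrast called 162 entries, and 32 to 35 without any 1 of the 4 dusk arrays. It does not show that a difference was largest at dusk, since differences of opposite sign cancel in the mean. At CT8, *LNK3* differed by 2.60, *LNK4* by 2.27, *RVE2* by -1.56 and *BAM3* by -1.29, and at CT16 *PIF4* differed by 2.55 (all called). The values that follow are log2 differences at dusk minus the mean of the others.

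Among genes of the clock and its partners, the contrast was 2.63 for *LNK4*, 2.52 for *LNK3*, 2.18 for *LNK2*, 2.03 for *PRR7*, 1.82 for *RVE7*, 1.59 for *LNK1*, 1.15 for *GI* and 0.99 for *PRR5*, and it was -1.20 for *RVE2*. For growth and light signalling genes it was 1.96 for *PIF4*, 1.91 for *PIF5*, 2.65 for *BBX28*, 1.38 for *BBX24*, 1.36 for *CDF3* and 1.18 for *HFR1*. The antenna genes *LHCB2.3*, *LHCB3* and *LHCA1* had 1.92, 0.72 and 0.69, and *LHCB4.3* had -1.61. Of the other large rises, *CIPK20* had 3.14, *ASN1* 2.61, *MYBL2* 2.40, *AT3G15450* 2.39 and *AT1G02610* 2.32. Of the genes lower at dusk, *AT1G73325* had -2.39, *AT2G28085* -1.91, *cPT4* -1.66, *TBL26* -1.63, *MYB111* -1.39, *BAM3* -1.06, *UGT78D1* -0.86 and *OPR3* -0.49.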

How the results depend on the processing

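No entry called at dusk changed sign with median centring or quantile normalization. The other alternatives could not change a sign. They left the dusk difference as it was, or left out 1 array of groups that did not overlap. The count of 177 calls at CT12 (96 higher, 81 lower) was 54 (34 and 20) at an adjusted p under 0.01, 91 (57 and 34) without the expression filter, 42 (26 and 16) when only the 4 dusk arrays were fitted and 273 at an expression threshold of 5.5, with 142 lower. A trend and robust prior gave 126 lower calls. Of the 177 entries, 88 were still called without the filter, 36 with the 4 arrays alone, 151 with median centring and 132 with quantile normalization. The cause of these changes was not tested. The fit of 4 arrays rested on fewer samples. With single arrays left out, the total ranged from 23 to 232, the higher calls from 15 to 115 and the lower calls from 5 to 117. It was 24 without Col_84, 28 without Col_108, 32 without rve8-1_84 and 23 without rve8-1_108, and 134 to 232 without any other array. The lone array left in a group was assumed to have the spread of the others. For a group of another time, leaving out either array gives the same dusk result, since only the pooled spread changes. No array of another time moved the total or the count in either direction by more than 1.5 times. The 2 calls against Col at CT8 became 1 when expression was required in each genotype, 4 with quantile normalization and 4 with the replicate block, and 2 to 3 with single arrays left out. The 162 calls of the dusk contrast with other times became 46 at an adjusted p under 0.01, 66 without the filter and 265 at a threshold of 5.5. With single arrays left out they were 32 to 247, with 32 to 35 without any dusk array, 105 without the later Col array of CT20 and 247 without the later *rve8-1* array of CT16. Among named genes, 9 calls were lost without the filter, 4 with quantile normalization and 24 with the 4 arrays alone. Single arrays of other times ended 6 named calls, those of *IAA29*, *HFR1*, *AT2G41090*, *RD29A*, *CCR1* and *cPT4*, at adjusted p values of up to 0.0607. All 6 were lost without either Col array of CT16 or of CT20, and *BOA* was called without either Col array of CT4. A replicate block for the day gave 221 calls at dusk (114 and 107) and ended no named call. The day 5 minus day 4 differences of Col and *rve8-1* at dusk correlated at 0.0629 over genes, so the days were not taken as pairs. The planned shares of promoter motifs were not run, as promoter sequences were not used here. Signal over background could be judged only from the summarized values.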

Other observations

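Several families were looked at after their values had been seen, so their counts are descriptions. Of 28 expressed B-box genes, 3 were called, all higher, against 0.493% of all entries, with a median of 0.11. Differences lay above 0 for 16 of them and below 0 for 12. Besides *BBX24* and *BBX28*, *COL5* had 7.13 and 7.22 in Col and 9.02 and 9.03 in *rve8-1*, a difference of 1.85 (limma adjusted p = 0.000865). Of 8 expressed trehalose phosphate synthase genes, 7 had differences above 0 and 2 were called, *TPS11* with 1.31 and *TPS8* with 0.96 (adjusted p = 0.00600 and 0.0414). The monosaccharide transporter gene *STP1* was higher by 1.01 (adjusted p = 0.00501) and was the sole call among 6 STP genes. Of these, 3 had differences above 0 and 3 below 0. *PORA*, a light-dependent enzyme of chlorophyll synthesis, was the sole call of 3 protochlorophyllide oxidoreductase genes and differed by 1.82 (adjusted p = 0.0419), while *PORB* had 0.55 and did not pass the test.

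Calls in the lower direction (0.416% of all entries) included both beta-amylases *BAM3* and *BAM2* (-1.04 and -0.68) of 9 expressed members. All 4 VTC genes of ascorbate synthesis had differences below 0, and *VTC2* and *VTC5* were called at -0.88 and -0.46 (limma adjusted p = 0.00992 and 0.0460). *VTC2*, which encodes GDP-L-galactose phosphorylase, had 9.80 and 10.02 in Col and 9.02 and 9.04 in *rve8-1*. The acid phosphatase gene *PAP17*, induced by phosphate starvation as is *AT5G03545*, had 9.0 and 9.39 against 7.73 and 8.14, a difference of -1.26 (adjusted p = 0.0180). No list of phosphate starvation genes was drawn up, so other such genes are not covered here.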
